A study of Homo sapiens with 12 samples.

Results

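H2A.Z is a variant of histone H2A that the TIP60 and SRCAP complexes place into nucleosomes, most of all around transcription start sites (TSSs) and at enhancers. Its acetylated form, H2A.Zac, is made by the acetyltransferase module of TIP60 and is found mainly at promoters and enhancers in use, whereas H2A.Z that is not acetylated is also known from promoters held silent or poised by Polycomb proteins. EP400 is the subunit of TIP60 that carries out the exchange of H2A for H2A.Z and holds the complex together, and TRRAP is its partner for contacts with transcription factors. Described here are the stretches of the genome where H2A.Z was listed as unchanged between a line with and a line without TRRAP binding to EP400 and where no region of H2A.Zac was listed at all.

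ChIP-seq of both marks was done in K562, an established erythroleukemia cell line, in which the endogenous EP400 gene carries a degradation tag (EP400-dTAG). One line expressed exogenous WT EP400 and the other exogenous ΔTRRAP EP400, which lacks the TRRAP contact, and 1 clone of each was used. Both lines were given dTAGV-1, the degrader of the tagged protein, at 500 nM for 24 h, so endogenous EP400 was targeted in the control as well. The 12 libraries were 2 biological replicates each of input, H2A.Z and H2A.Zac for the WT and for the ΔTRRAP line. The deposited lists were made from merged replicates and give, for each mark, the regions higher in WT (lost in ΔTRRAP), the regions higher in ΔTRRAP (gained) and the unchanged regions, with 1 likelihood ratio per region. Since they carry neither replicate values nor read depth, no test across samples was possible, and intervals below are 95% Wilson intervals that cover counting error only.

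Of the 41885 unchanged H2A.Z regions, 5751 (13.7%, 13.4 to 14.1) shared no base with any of the 94586 listed H2A.Zac regions. These regions were chosen by the measured lists of both marks, so their lack of a listed H2A.Zac region and their unchanged H2A.Z are given as a description and not as a finding. They are called H2A.Z-only regions in what follows. That name refers to the lists: the lists hold no H2A.Zac signal, and a region below the limits used to make them can still carry acetylated H2A.Z. They were set beside the 28001 unchanged H2A.Z regions (66.9%) of which at least 25% was covered by unchanged H2A.Zac, called acetylated regions. The remaining 8133 touched H2A.Zac in another way, 6907 of them (84.9%) only at lost or gained H2A.Zac regions. At the border of the rule, the closest H2A.Z-only regions abutted a lost H2A.Zac region with 0 bases between them, at chr19:50096056-50096579 and chr20:10031846-10032159, and the closest regions left out shared 5 or 6 bases with a gained or unchanged H2A.Zac region. In all, 49 H2A.Z-only regions had an H2A.Zac region within 100 bases, and 99 regions were left out for at most 100 shared bases. The likelihood ratio between the lines, which the rule used, had a median of 0.628 in H2A.Z-only and 0.579 in acetylated regions. The classes were assigned along the pileup and can overlap: 908 H2A.Z-only regions (15.8%) also shared at least 1 base with a lost or gained H2A.Z region, as did 16.6% of the acetylated regions.

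The DNA under these regions ranged from CpG islands to ordinary intergenic sequence. To show it, 150 bases were read from the hg38 plus strand, 5′ to 3′, with CG dinucleotides in capitals, from the widest H2A.Z-only region at the TSS of MAP3K3 (chr17:63622265-63622414, ending at the base before the TSS), SAMD5 (chr6:147508138-147508287, upstream of the TSS), MARK1 (chr1:220527986-220528135, ending at the base before the TSS) and KDM5B (chr1:202810088-202810237, from a region upstream of the KDM5B TSS that holds a TSS of a lncRNA gene and overlaps PCAT6). The same was done for the widest H2A.Z-only regions that lay over 10 kb from any TSS and any H2A.Zac region, on chromosome 21 (chr21:37564720-37564869) and chromosome 3 (chr3:41117744-41117893), neither of them in an annotated gene. These stretches lie as close to the middle of the region as annotated exons allowed.
MAP3K3: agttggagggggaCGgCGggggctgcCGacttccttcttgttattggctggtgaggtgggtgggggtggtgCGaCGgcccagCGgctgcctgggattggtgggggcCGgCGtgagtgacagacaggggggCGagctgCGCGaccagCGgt
SAMD5: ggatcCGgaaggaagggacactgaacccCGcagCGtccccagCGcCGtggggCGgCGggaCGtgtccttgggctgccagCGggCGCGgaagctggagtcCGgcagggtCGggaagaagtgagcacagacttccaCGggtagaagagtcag
MARK1: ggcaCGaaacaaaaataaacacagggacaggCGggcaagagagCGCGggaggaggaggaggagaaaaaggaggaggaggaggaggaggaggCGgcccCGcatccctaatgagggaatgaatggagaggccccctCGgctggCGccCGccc
KDM5B: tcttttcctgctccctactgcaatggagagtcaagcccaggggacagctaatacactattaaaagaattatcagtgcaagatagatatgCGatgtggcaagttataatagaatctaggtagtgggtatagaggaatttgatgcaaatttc
Chromosome 21: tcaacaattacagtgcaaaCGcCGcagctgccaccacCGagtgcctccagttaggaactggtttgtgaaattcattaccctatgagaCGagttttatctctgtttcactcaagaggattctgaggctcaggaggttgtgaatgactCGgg
Chromosome 3: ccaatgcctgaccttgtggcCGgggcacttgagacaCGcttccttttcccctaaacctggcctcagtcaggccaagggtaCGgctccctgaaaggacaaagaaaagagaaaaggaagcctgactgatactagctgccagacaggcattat
The printed stretches held 12, 14, 9 and 1 CG dinucleotides at MAP3K3, SAMD5, MARK1 and KDM5B, and 5 and 3 at the distal regions of chromosomes 21 and 3. The stretch printed for KDM5B is not from its TSS, which lay in another H2A.Z-only region with a GC content of 64.5% and a CpG ratio of 0.789. The CG-rich letters of MAP3K3, SAMD5 and MARK1 are typical of CpG islands, the unmethylated stretches at which most broadly used promoters start.

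Most H2A.Z-only regions lay away from TSSs. Within 1 kb of a TSS were 928 of them (16.1%, 15.2 to 17.1), against 13275 acetylated regions (47.4%, 46.8 to 48.0). For TSSs of protein-coding genes the shares were 9.20% and 38.5%, and for those of lncRNA genes 5.20% and 15.4%, while for all other gene types, such as pseudogenes and small RNAs, they were 4.07% and 4.69%. The share of H2A.Z-only regions was thus lower at protein-coding and lncRNA TSSs, with intervals that did not overlap, and close to that of acetylated regions at the other types, where the intervals did overlap. Of the H2A.Z-only regions, 2474 (43.0%) lay in no annotated gene and away from TSSs and 1783 (31.0%) in a gene but in no exon, against 22.4% and 19.7% of the acetylated regions. Exons away from TSSs held a similar part of both, 9.84% and 10.5%. Counted by distance, 47.1% of the H2A.Z-only regions were within 10 kb of a TSS and 4.94% over 100 kb from one, compared with 70.2% and 2.27% of the acetylated regions.

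H2A.Z-only regions were also narrower than acetylated ones. Their width had a median of 483 bp (quartiles 355 and 682 bp, widest 4380 bp), and acetylated regions had a median of 838 bp (555 and 1252 bp). The remaining regions, which touched H2A.Zac in another way, were nearly as narrow, with a median of 510 bp, so a small width was not particular to H2A.Z-only regions. Of these remaining regions 32.1% were TSS-proximal and their median GC content was 51.6%, both between the values of H2A.Z-only and acetylated regions. A narrow region has fewer bases to share with another list, so the rule itself favors narrow regions. Within classes of width the difference in location remained. Under 500 bp, 13.3% of the H2A.Z-only and 38.3% of the acetylated regions were TSS-proximal. From 500 to under 1000 bp the shares were 16.5% and 42.4%. Among regions of 1000 bp or more, 158 of 498 H2A.Z-only regions (31.7%, 27.8 to 35.9) and 57.5% of the acetylated regions were TSS-proximal, so the widest H2A.Z-only regions were at TSSs more often than the narrow ones. The TSS-proximal share, the median GC content and the median width were lower in H2A.Z-only than in acetylated regions in 23 of 23 chromosomes, 1 to 22 and X.

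**Figure D1:**
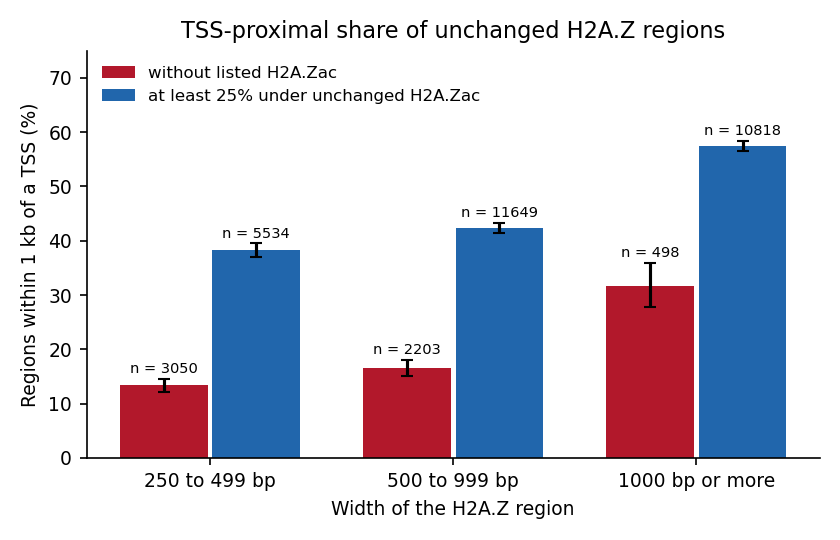
Share of unchanged H2A.Z regions within 1 kb of a TSS (vertical axis, %) in 3 classes of region width, for H2A.Z-only regions (red) and acetylated regions (blue); bars are shares, error bars 95% Wilson intervals and n the number of regions. The red bar is lower in each class, at 13.3%, 16.5% and 31.7%.

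The sequence of the H2A.Z-only regions was less rich in G, C and CpG. The median GC content was 48.4% in H2A.Z-only and 53.4% in acetylated regions, and the CpG observed/expected ratio, the number of CG dinucleotides relative to that given by the C and G content, had medians of 0.315 and 0.508. Promoters are generally GC-rich, so the values were also taken by location. Away from TSSs the medians were close, with a GC content of 47.5% and 49.2% and a CpG ratio of 0.287 and 0.310. Near TSSs the GC content was 56.5% and 59.0% and the CpG ratio 0.608 and 0.697. CpG-rich sequence, taken as a GC content over 50% and a CpG ratio over 0.6, made up 441 of 928 TSS-proximal H2A.Z-only regions (47.5%, 44.3 to 50.7) and 63.1% (62.3 to 63.9) of the TSS-proximal acetylated regions. In TSS-distal regions it made up 10.8% (9.92 to 11.7) of the H2A.Z-only and 14.0% (13.5 to 14.6) of the acetylated ones, a smaller difference with intervals that did not overlap. The TSS-proximal H2A.Z-only regions were therefore a mixture, with a part as CpG-rich as MAP3K3, SAMD5 and MARK1 and a part closer to distal sequence.

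**Figure D2:**
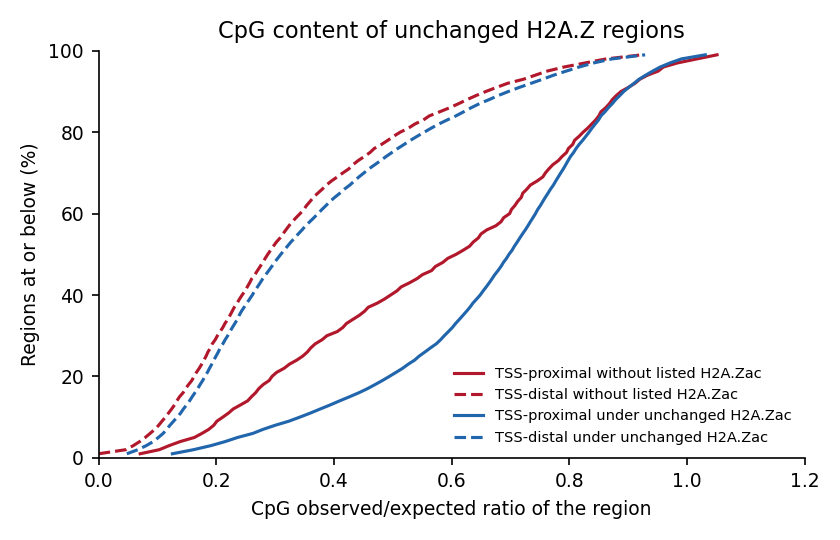
Cumulative share of regions (vertical axis, %) by CpG observed/expected ratio (horizontal axis) for H2A.Z-only (red) and acetylated regions (blue), TSS-proximal as solid and TSS-distal as dashed lines. The dashed lines lie close together, the red one at slightly lower ratios, with medians of 0.287 and 0.310. The solid lines part at low ratios, with medians of 0.608 and 0.697.

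Some short sequence motifs followed the same pattern. The letters of 11 motifs were searched on both strands in the 300 bases around each region's midpoint. A match is a run of letters and not a bound site. GGGCGG, the core of the sites of SP and KLF factors, which bind GC-rich promoters, was present in 17.8% (16.9 to 18.9) of the H2A.Z-only, 34.9% (34.3 to 35.4) of the acetylated and 31.2% of all unchanged H2A.Z regions. This was the largest difference in share among the motifs searched. In TSS-distal regions alone it was 13.4% against 19.6%. Within classes of GC content the shares in H2A.Z-only and acetylated regions were 1.90% and 3.33% for windows under 45% GC, 7.23% and 8.85% for 45 to under 50%, 15.7% and 18.4% for 50 to under 55%, and 48.0% and 59.3% for 55% or more. The lowest and the highest class had intervals that did not overlap, and the middle classes had intervals that did. Other motifs with a CG in their letters were also found in fewer H2A.Z-only regions: the ETS core CCGGAAG in 2.99% against 6.44%, the E-box CACGTG in 3.76% against 5.96%, YY1 (AAGATGGCG) in 0.678% against 1.17%, NRF1 (GCGCATGCG) in 0.261% against 0.718% and the cyclic AMP response element TGACGTCA in 0.313% against 0.679%. Among TSS-distal regions alone the ETS core was in 2.74% against 4.14% and the E-box in 3.69% against 5.26%, with intervals that did not overlap. For YY1 (0.601% against 0.924%), NRF1 (0.145% against 0.292%) and the cyclic AMP response element (0.2695% against 0.3735%) the TSS-distal intervals overlapped. The part of the lower CpG content of H2A.Z-only regions in these differences was not tested.

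The other motifs did not all share this direction. The CCAAT letters of NF-Y, a factor of many promoters, were found in more H2A.Z-only than acetylated regions, 29.4% (28.2 to 30.5) against 25.65% (25.1 to 26.2), and among TSS-distal regions in 30.4% against 28.35%. AGATAA, the site of GATA factors, which direct the erythroid program, was found in 14.8% of the H2A.Z-only and 11.7% of the acetylated regions, but among TSS-distal regions in 15.9% and 15.4%, with overlapping intervals. Within classes of GC content the order was not kept: for windows under 45% GC the shares in H2A.Z-only and acetylated regions were 25.4% and 25.5%, for 45 to under 50% they were 14.2% (12.5 to 16.2) and 18.7% (17.6 to 19.9), for 50 to under 55% they were 11.7% and 12.6%, and for 55% or more 5.33% and 4.13%. AP-1 (TGANTCA), bound by the FOS and JUN proteins, was found in 8.71% of all H2A.Z-only and 8.21% of all acetylated regions, with overlapping intervals, but in 9.31% of the TSS-distal H2A.Z-only and 11.2% of the TSS-distal acetylated regions. The CTCF consensus, the site of the main insulator protein of chromosomes, was matched in 24 of 5751 H2A.Z-only regions (0.417%, 0.281 to 0.620) and in 0.464% of the acetylated regions. Part of the site of REST, a repressor of neuronal genes (TTCAGCACC), was matched in 0.278% and 0.296%.

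From the widest H2A.Z-only regions with the SP/KLF letters near the midpoint and not printed above, 2 stretches are shown, again on the plus strand of hg38, with the matches in capitals. One lies upstream of the TSS of JARID2, a partner of the Polycomb complex PRC2 (chr6:15245147-15245296), and the other in an intronic stretch near the start of LCOR, a ligand-dependent corepressor of nuclear receptors (chr10:96832400-96832549).
JARID2: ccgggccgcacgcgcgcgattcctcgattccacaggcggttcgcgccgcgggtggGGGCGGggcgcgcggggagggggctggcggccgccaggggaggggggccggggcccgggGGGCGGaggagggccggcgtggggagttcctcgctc
LCOR: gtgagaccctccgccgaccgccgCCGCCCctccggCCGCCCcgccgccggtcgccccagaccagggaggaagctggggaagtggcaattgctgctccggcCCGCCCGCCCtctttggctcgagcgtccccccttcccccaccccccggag
The JARID2 stretch holds 2 matches of GGGCGG, and the LCOR stretch 4 of its reverse complement CCGCCC, a pair of which overlap.

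The distance of H2A.Z-only regions to listed H2A.Zac was also taken. The rule had removed every region that shared a base with H2A.Zac, and no other regions were measured for comparison. These distances are therefore a description and not a finding. The distance to the nearest H2A.Zac region of any class could be taken for 5750 of the 5751, the last one lying on an unplaced contig with none. Its median was 7.001 kb (highest 997.6 kb). It was at most 1 kb in 695 regions (12.1%), 1 to 10 kb in 2680 (46.6%) and over 10 kb in 2375 (41.3%). TSS-proximal H2A.Z-only regions were the more isolated ones, with a median of 9.40 kb and 453 of 928 (48.8%) over 10 kb away, against 1922 of 4822 (39.9%) of the TSS-distal ones. H2A.Z-only regions right beside listed acetylation were thus a minority, both at TSSs (12.7% within 1 kb) and away from them (11.97%).

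**Figure D3:**
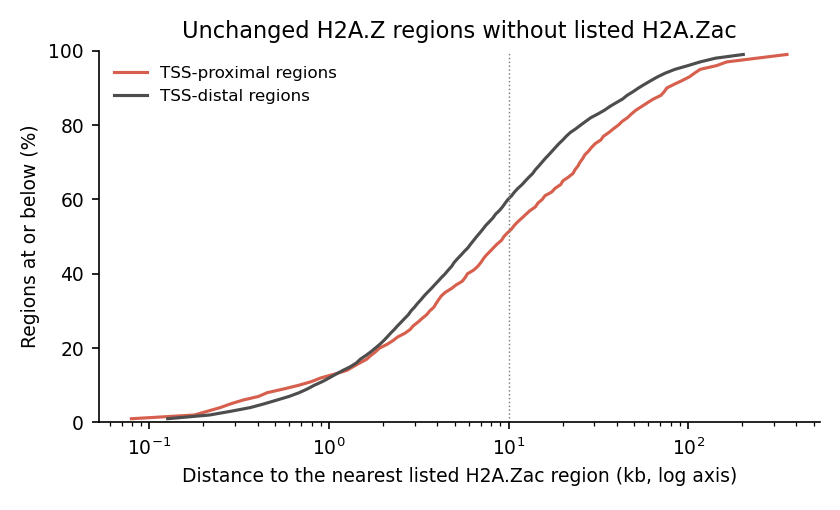
Cumulative share of H2A.Z-only regions (vertical axis, %) by distance to the nearest listed H2A.Zac region (horizontal axis, kb, log axis), for TSS-proximal (red) and TSS-distal regions (gray), with a dotted line at 10 kb. At 10 kb the TSS-proximal line is the lower one, since 48.8% of those regions lie farther away, against 39.9% of the TSS-distal regions.

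Which class the nearest H2A.Zac region belonged to was compared with the lists as a whole, in which 25.9% of the H2A.Zac regions were lost and 26.3% gained. The nearest H2A.Zac region of the H2A.Z-only regions was unchanged for 49.0%, lost for 30.9% (29.7 to 32.1) and gained for 20.03% (19.02 to 21.1). Lost acetylation was the nearest more often than its share of the list, and gained acetylation less often. The rule had already removed every unchanged H2A.Z region that touched a lost or gained H2A.Zac region. The class of the nearest one depends on that choice, so these shares are a description and not a finding. By distance, the nearest was lost for 28.1% (24.8 to 31.5) within 1 kb, 34.7% (32.9 to 36.5) at 1 to 10 kb and 27.5% (25.7 to 29.3) over 10 kb, so the higher share of lost acetylation lay at 1 to 10 kb, and the other intervals held the 25.9% of the list. Counting changed H2A.Zac only, the nearest was lost for 52.9% of the H2A.Z-only and 44.2% of the acetylated regions. The difference was mainly in TSS-proximal regions, with 51.7% against 36.4%, and in TSS-distal regions the shares were 53.1% and 51.4%, with overlapping intervals. Without chromosomes 19 and 20 the shares were 52.2% and 42.9%. The rule kept H2A.Z-only regions from sharing a base with changed H2A.Zac, whereas acetylated regions were free to overlap it. The nearest changed region was therefore taken under unequal limits in H2A.Z-only and acetylated regions. The differences between their shares are likewise a description and not a finding.

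Changed H2A.Z near the H2A.Z-only regions was counted in the same way. Of all listed H2A.Z regions, 19.8% were lost and 14.1% gained. A lost H2A.Z region lay within 1 kb of 951 H2A.Z-only regions (16.5%, 15.6 to 17.5) and of 13.3% of the acetylated regions. Over all unchanged H2A.Z regions it was 17.01%, within the interval of the H2A.Z-only regions. A gained one lay within 1 kb of 589 (10.2%, 9.48 to 11.1), of 15.6% of the acetylated and of 16.5% of all unchanged H2A.Z regions. Either kind was near 26.6%, 28.2% and 32.8%. All unchanged H2A.Z regions include the remaining regions, which touched H2A.Zac in another way. Of those remaining regions, 30.0% were near lost, 23.9% near gained and 53.4% near either kind of changed H2A.Z. The rule kept H2A.Z-only regions from touching changed H2A.Zac, so these shares are a description and not a finding. Among H2A.Z-only regions with a likelihood ratio under 1, the share near either kind was 17.25% in place of 26.6%. In TSS-distal regions the gap was smaller, with lost H2A.Z near 17.5% of the H2A.Z-only and 15.6% of the acetylated regions, and gained H2A.Z near 9.29% and 11.03%. The H2A.Z regions were all tested in 1 comparison of the lines, and neighbors share peaks, so these counts are not independent of each other.

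Chromosomes differed in how much of their unchanged H2A.Z was H2A.Z-only. The share by chromosome had a median of 13.7% and went from 6.45% on chromosome 19, which is rich in genes, to 216 of 883 regions (24.5%) on chromosome 18, with 19.7% on chromosome 6, 18.7% on chromosome 4 and 17.4% on chromosome 7. Runs of H2A.Z-only regions were counted as well. When the unchanged H2A.Z regions were read along the genome, 2844 H2A.Z-only regions (49.5%) stood in runs of 2 or more with no other unchanged H2A.Z region between them, and 45 runs held 5 or more. Lost or gained H2A.Z can lie within a run. Whether 49.5% is more than a random order would give was not tested, and no such share was taken for acetylated regions.

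The longest run, chosen after its values were seen, held 12 H2A.Z-only regions over 120.9 kb at chr6:15128224-15249144 and ended at the start of JARID2 (ENSG00000008083, TSS at base 15246069 of the plus strand). The widest of the 12, 2056 bp at chr6:15244195-15246250, covered the TSS itself, with a GC content of 62.3% and a CpG ratio of 0.878. A second, 823 bp with a CpG ratio of 1.04, began 1.72 kb downstream of the TSS, and the last, of 272 bp, lay 2.80 kb downstream. The other 9 were spread from 48.6 to 117.6 kb upstream, with CpG ratios up to 0.394, so the run joined a CpG island promoter to distal H2A.Z of ordinary sequence. H2A.Zac was not missing from the whole span, which held 3 H2A.Zac regions, but it came no closer than 6.39 kb to any of the 12. The span also held 5 lost and 2 gained H2A.Z regions.

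At the level of genes, an H2A.Z-only TSS was uncommon. Of 20007 protein-coding genes, 11495 (57.5%) had both marks within 1 kb of the TSS, 972 had H2A.Zac alone and 7006 had neither. An H2A.Z-only region and no H2A.Zac in that window was found at 429 genes (2.14%), which is the background for the gene lists below, or 3.57% of the genes with any H2A.Z there. Of the 429, 259 (60.4%) had no H2A.Zac region within 10 kb of the TSS, and the median distance from TSS to H2A.Zac was 15.9 kb. A lost or gained H2A.Z region was also in the window at 95 of them (22.1%).

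The 12 genes with the longest H2A.Z-only stretch at the TSS and no H2A.Zac within 10 kb of the TSS were described singly. MAP3K3, a kinase of the MAPK cascades, had 1 region of 2156 bp over its TSS and first exon (chr17:63621408-63623563), with a GC content of 66.1%. The TSS lay 11.2 kb from the nearest H2A.Zac. SAMD5, which encodes a sterile alpha motif protein, had 1 of 2723 bp (chr6:147506852-147509574), and its TSS lay 24.97 kb from H2A.Zac. MARK1, a kinase of microtubule-associated proteins, had a region of 1795 bp (chr1:220527332-220529126), and its TSS lay 51.8 kb from the nearest H2A.Zac. These 3 TSSs each had a single, wide, CpG-rich region with no other H2A.Z class in the window.

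KDM5B, SMARCA5, LCOR and SKIL encode proteins that act on chromatin or transcription. KDM5B, a demethylase of histone H3 lysine 4, had an H2A.Z-only region of 2254 bp over its TSS and first exon (chr1:202806814-202809067) and another of 2554 bp upstream (chr1:202809278-202811831). A lost H2A.Z region of 280 bp lay in the gap between them and over the edge of the second. The nearest H2A.Zac was 28.5 kb from the TSS. SMARCA5, the ATPase of the ISWI remodelers, had regions of 1142 bp over the TSS (chr4:143513510-143514651) and 824 bp upstream. Its TSS lay 11.02 kb from H2A.Zac, and the upstream region was nearer to it. LCOR had 1 of 1947 bp (chr10:96831488-96833434), and its TSS lay 41.9 kb from H2A.Zac. SKIL, a corepressor of TGF-β signaling, had 3, of 1606, 469 and 435 bp, and a gained H2A.Z region of 394 bp that overlapped the last 2 of them. SKIL also lay in a run of 7 H2A.Z-only regions within 8.62 kb (chr3:170349977-170358594), in which no H2A.Zac was listed.

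The others were SERPINI1, CCDC25, MAP4K3 and the pair CKLF and TK2. SERPINI1, which encodes neuroserpin, had regions of 1571 and 720 bp. Its TSS had the most distant H2A.Zac of the 12, at 151.0 kb. The stretch of 382.4 kb without listed H2A.Zac around it also held the TSS of PDCD10, a signaling adaptor gene. PDCD10 shared these regions, with 1478 bp of them within 1 kb of its TSS. MAP4K3, a kinase upstream of the stress-activated MAPKs, had regions of 816 and 1019 bp on the sides of its TSS and a gained H2A.Z region of 288 bp inside the second. CCDC25, a membrane protein gene on chromosome 8, had 1 region of 1725 bp, and its TSS lay 45.2 kb from H2A.Zac. The gene ESCO2, in the same stretch without listed H2A.Zac, had 1123 bp of H2A.Z-only sequence within 1 kb of its TSS. CKLF, a chemokine-like factor, and TK2, the mitochondrial thymidine kinase, are transcribed in opposite directions from 1 promoter and shared the same regions, of 1360 and 697 bp, so they count as 1 locus. A gained H2A.Z region of 383 bp lay inside the wider of these.

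**Figure D4:**
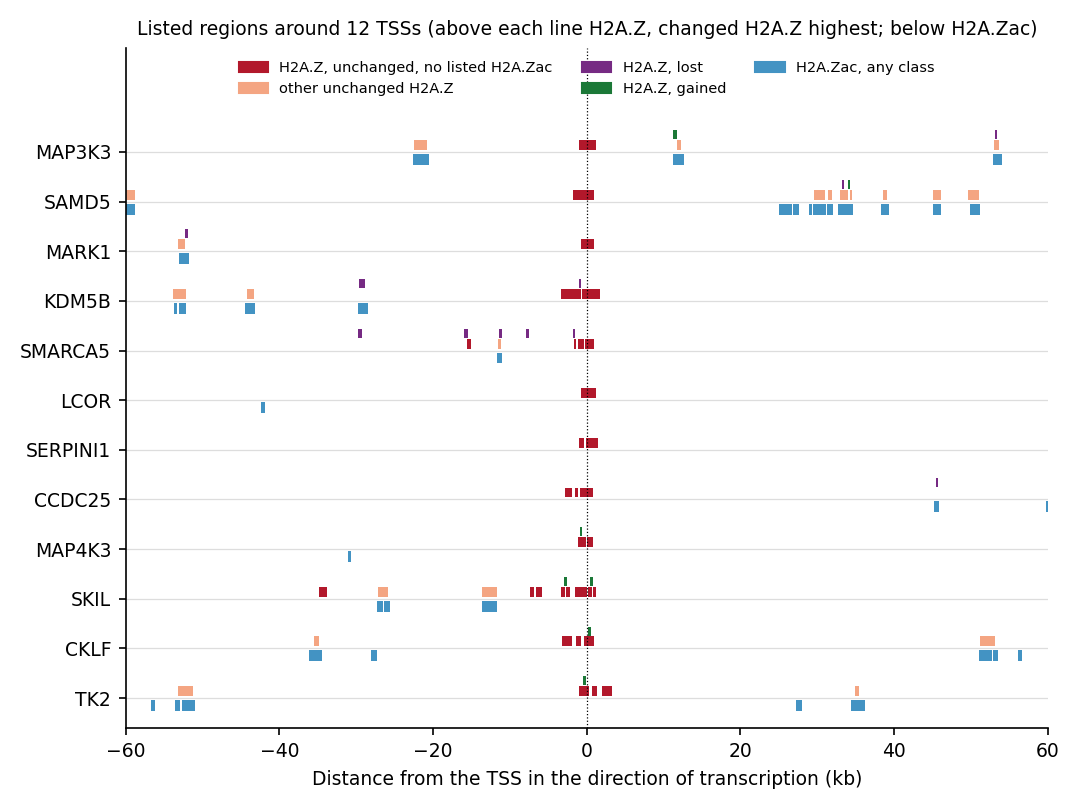
Listed regions within 60 kb of the TSS of the 12 genes (horizontal axis, distance from the TSS in kb in the direction of transcription; 1 line per gene), with unchanged H2A.Z just above the line (H2A.Z-only in dark red, other in light orange), lost (purple) and gained (green) H2A.Z highest, and H2A.Zac of any class (blue) below the line. Dark red regions lie within 1 kb of each TSS, and no blue lies within 10 kb of it. Other dark red regions, as at SMARCA5 and SKIL, lie farther out and can be nearer to blue. SERPINI1 has no H2A.Zac in the whole window, its nearest being 151.0 kb from the TSS.

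Gene lists were counted against the background of 2.14% and are described by their counts, with no test. The clustered protocadherins, cell adhesion genes of neurons whose alternative promoters are arrayed on chromosome 5, had 8 of 53 genes (15.1%, 7.85 to 27.1) with an H2A.Z-only region and no H2A.Zac at the TSS. PCDHA1 (632 bp), PCDHA2 (511 bp), PCDHA4 (550 bp) and PCDHA5 (435 bp) each had their own region over the first exon, all within 1 stretch of 367.6 kb without listed H2A.Zac. That stretch also held 2 gained H2A.Z regions, one of which, of 360 bp, lay inside the PCDHA2 region. PCDHGB4 (488 bp) had H2A.Zac 4.04 kb from its TSS, and PCDHB15 (329 bp) had none within 74.9 kb of its TSS. Among the protocadherins any H2A.Zac was listed at 8 of 53 TSSs, so the count of H2A.Z-only TSSs was as high as that of acetylated ones.

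The HOX cluster genes, which set position along the body axis and are classic Polycomb targets, had 4 of 39 (10.3%, 4.06 to 23.6). These were HOXA6, HOXC6, HOXD3 and HOXD10, with regions of 597, 1097, 392 and 351 bp. Their nearest H2A.Zac was 9.85, 2.35, 3.78 and 9.90 kb from the TSS, each below the median of 15.9 kb over the 429 genes, and 18 of the 39 HOX TSSs had H2A.Zac. The intervals of the protocadherin and HOX shares lay above the background, and both lists are of neighboring genes that are not independent.

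Over all their genes, lists of other developmental and neuronal genes were near the background of 2.14%, but few of these genes had any H2A.Z at the TSS. Developmental transcription factors had 4 of 179 (2.23%), namely SOX5 (486 and 385 bp), ISL1 (601 bp), TFAP2C (550 bp) and NEUROG2 (537 and 256 bp, with a gained H2A.Z region over the TSS). Signaling ligands had 2 of 74 (2.70%), FGF13 and WNT4. Neuronal channels and receptors had 3 of 86 (3.49%), the glutamate receptor genes GRIK1 and GRM4 and the potassium channel gene KCNB2. Olfactory receptors, which lack most chromatin marks outside the nose, had 2 of 415 (0.482%), OR10Q1 and OR2T8. The intervals of the first 3 of these lists held the background, and that of the olfactory receptors lay below it. With the genes that had any H2A.Z at the TSS as the base, for which the share over all protein-coding genes was 3.57%, the picture turned. The shares were then 4 of 55 developmental transcription factors (7.27%, 2.86 to 17.3), 2 of 25 ligands (8.0%, 2.22 to 24.97), 3 of 21 neuronal genes (14.3%, 4.98 to 34.6) and 2 of 14 olfactory receptors (14.3%, 4.01 to 39.9). All 4 lay above 3.57%, with the intervals of the neuronal genes and the olfactory receptors wholly above it, on counts of 2 to 4 genes. On the same base the protocadherins had 8 of 19 (42.1%, 23.1 to 63.7) and the HOX genes 4 of 14 (28.6%, 11.7 to 54.6).

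Among erythroid genes 2 of 50 (4.0%, 1.104 to 13.5) had an H2A.Z-only TSS. With the erythroid genes that had any H2A.Z at the TSS as the base, it was 2 of 31 (6.45%, 1.79 to 20.7). That share was also above the 3.57% of all protein-coding genes, with an interval that held it. BCL11A, the repressor of fetal globin, had 1 region of 1428 bp across its TSS (chr2:60553727-60555154), with a GC content of 66.7%. The nearest H2A.Zac was a lost region 27.2 kb from the TSS. RHD, the Rh D blood group antigen gene, had regions of 766 and 402 bp with a lost H2A.Z region of 510 bp over the edge of the wider one. The TSS of RHD lay 3.56 kb from H2A.Zac. The other erythroid genes were mostly acetylated, with H2A.Zac at 42 of 50 TSSs. As a check of the cell type, H2A.Zac was listed at the TSSs of the defining erythroid genes TAL1, HBG1, HBG2, HBE1, HBZ and KLF1, but not at GATA1, and at 6 of 8 genes that define other blood cells, and none of these genes had an H2A.Z-only region at the TSS. The lists hold no expression, so the cell type cannot be judged from them further.

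No H2A.Z-only TSS without H2A.Zac was found in 8 lists: 79 cytosolic ribosomal protein genes (interval up to 4.64%), 33 proteasome subunit genes (10.4%), 246 zinc finger genes of chromosome 19 (1.54%), 69 replication-dependent histone genes (5.27%), 49 lymphoid and myeloid genes (7.27%), 25 genes of EP400, the TIP60 complex and TRRAP (13.3%), 20 megakaryocyte genes (16.1%) and 5 genes edited or named in the study (43.5%). Apart from the zinc finger genes, the upper bounds lie above the background of 2.14%, so these lists are too short to tell a 0 from the background. With the genes that had H2A.Z as the base, the zinc finger genes again had an upper bound, 2.03% for 0 of 185, under the 3.57% of all genes. The zinc finger genes all lie on 1 chromosome and are not independent. That chromosome, 19, also had the lowest share of H2A.Z-only regions, 6.45% of its unchanged H2A.Z regions. H2A.Zac was listed at 62.3% of all protein-coding TSSs. It was at 76 of 79 ribosomal protein TSSs, 31 of 33 proteasome TSSs, 197 of 246 zinc finger TSSs, 51 of 69 histone TSSs, 5 of 5 TSSs of the study genes and 25 of 25 TSSs of the EP400 and TIP60 list. It was at 11 of 20 megakaryocyte TSSs and 27 of 49 lymphoid and myeloid TSSs, shares below that of all genes. In the EP400 and TIP60 list, MRGBP, a subunit of the TINTIN module of TIP60, had an H2A.Z-only region within 1 kb of its TSS beside an H2A.Zac region. The same was so for the zinc finger genes ZNF257, ZNF283 and ZNF836 and for CXCR4 of the lymphoid and myeloid list.

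**Figure D5:**
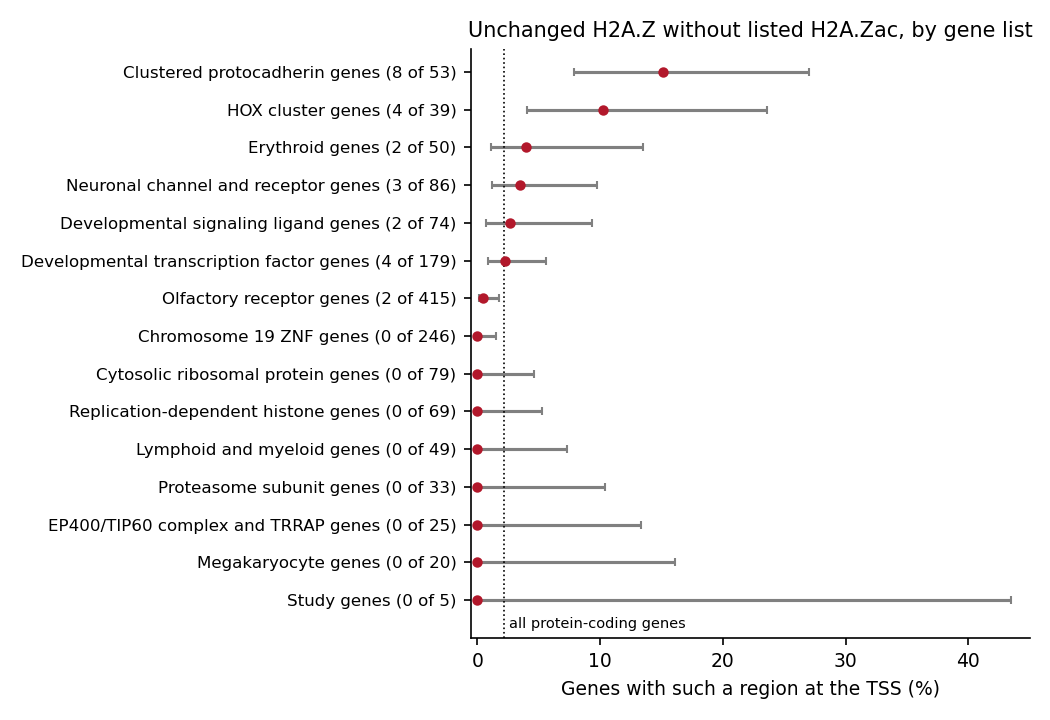
Share of the genes of each list (horizontal axis, %) with an H2A.Z-only region within 1 kb of the TSS and no H2A.Zac there; points are shares, bars 95% Wilson intervals, numbers in brackets counts, and the dotted line all protein-coding genes (2.14%). The protocadherins (15.1%) and HOX genes (10.3%) have intervals to the right of the line, and the chromosome 19 zinc finger genes and olfactory receptors have intervals to its left.

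Of the 5 widest H2A.Z-only regions, 1 was at the TSS of a protein-coding gene, while of those of 1000 bp or more 22.1% were. The widest of all, 4380 bp at chr6:21996342-22000721, overlapped an exon of the lncRNA gene CASC15, had a GC content of 38.9% and lay 2.75 kb from H2A.Zac. The next was the distal region printed above, 3355 bp at chr21:37563118-37566472, which was 27.5 kb from any TSS and 11.04 kb from a lost H2A.Zac region. A region of 3166 bp at chr7:20548244-20551409 and one of 2896 bp at chr4:6750838-6753733 lay 0.305 and 1.25 kb from unchanged H2A.Zac. The one at a protein-coding TSS was the region of 2997 bp at PBK, a mitotic kinase gene on chromosome 8, 0.512 kb from unchanged H2A.Zac. Of these 5, only the one on chromosome 21 was beyond 10 kb from H2A.Zac, the distance that the choice of the 12 genes above required from the TSS.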

How the data were processed

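The 12 libraries were 2 replicates of input, H2A.Z and H2A.Zac per line. Per the submitters' processing notes and the study's methods, reads were aligned with Bowtie2 2.4.5 to hg38, replicates were merged, and the lines were compared with MACS2 2.2.7.1 bdgdiff at a ratio cutoff of 3, and a region was kept if peaks reproducible at an IDR of 0.05 covered at least 25% of it. The authors deposited 6 lists whose score is the log10 likelihood ratio between the lines. It is not a fold change and was used here to describe and filter regions. Shorter regions than 250 bp were not in the lists.

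H2A.Z-only and acetylated regions were found by shared bases. TSSs and exons came from GENCODE release 44, with 1 kb to each side of a TSS as TSS-proximal. Sequence came from hg38, and no region passed a chromosome end. Covered bases and gaps of 41885 regions differed from those of bedtools 2.31.1 in 0 cases and were tested on simulated data. Python 3.11.15, pandas 2.3.3, scipy 1.17.1 and pysam 0.24.0 were used.

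The regions, the 15 gene lists and the motifs were chosen with earlier results of these data known. Named were the 12 genes with the longest H2A.Z-only stretch at the TSS and no H2A.Zac within 10 kb of the TSS. At most 6 genes per list and the 5 widest regions were also named. Printed stretches were moved off annotated exons, a choice made after seeing the data, as were the classes of GC content, the leaving out of chromosomes 19 and 20 and the counts over genes with H2A.Z. Depth is unknown here. Signal tracks, inputs and expression were not analysed here. One gene of the marker list is not reported here.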

Additional observations from a re-analysis of the deposited data

How the results depend on the processing

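No paired analysis was possible because the lists come from merged replicates and no value comes from a test. For the same reason no replicate could be left out, and each chromosome was left out in turn instead. The H2A.Z-only regions had a lower TSS-proximal share, median width and median GC content than the acetylated regions under each of 4 alternatives: no H2A.Zac within 1 kb, regions of at least 500 bp, a likelihood ratio under 1, and chromosomes 1 to 22. The shares and medians that moved beyond the interval of the reported value were these. With no H2A.Zac within 1 kb, the share of H2A.Z-only regions was 12.1% and their GC content 48.7%. With at least 500 bp, that share was 9.20%, the TSS-proximal shares of H2A.Z-only and acetylated regions 19.3% and 49.7%, the width 702 bp, the GC content 47.8% and the share with changed H2A.Z within 1 kb 22.5%. With a likelihood ratio under 1, the width was 512 bp and the share with changed H2A.Z within 1 kb 17.25%, against 26.6% as reported. Leaving out a chromosome gave H2A.Z-only shares of 13.25% (without chromosome 6) to 14.13% (without chromosome 19) and TSS-proximal shares of acetylated regions of 46.5% (without chromosome 19) to 48.1% (without chromosome 6). The TSS-proximal shares were 13.6% and 43.9% with 500 bp to each side, 21.1% and 51.6% with 2 kb, and 9.20% and 38.5% for protein-coding TSSs. Merging regions within 1 kb gave a median width of 515 bp, and base pairs in place of regions a share of 9.36%. The CTCF share was 0.261% in 200 bases and 1.13% in 500 bases. Whether the window length alone gives this difference was not tested. The count of 429 genes stayed within 1.5 times, at 396 and 446 with 500 bp and 2 kb to each side of the TSS and 335 with no H2A.Zac within 5 kb. Since the depth is unknown, a missing H2A.Zac region cannot be told apart from one below the limits of the lists.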

Other observations

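Runs of H2A.Z-only regions were ranked by their number of regions, with ties in order of chromosome name, and the first 10 were kept. Of these 10, the 8 not given above are named here after their values were seen. The runs of 6 named are thus only some of the runs of that length. A run of 8 regions stood at chr10:80747737-80860679, of 255 to 1753 bp, with 1 H2A.Zac region and 4 lost and 1 gained H2A.Z regions in the span. Another run of 8 stood at chr2:145822856-145938408, of 269 to 1232 bp, with a GC content of 31.1% to 44.04%, and with 2 H2A.Zac regions, 1 gained and no lost H2A.Z region in the span. A run of 6 at chr13:80558896-80574961 had 6 gained and 0 lost H2A.Z regions in its span and no H2A.Zac inside it, though the nearest H2A.Zac was 0.171 kb from one of them and 6.59 kb from the farthest. A run of 7 at chr6:160837172-160860324 had 3 lost and 0 gained H2A.Z regions and no H2A.Zac in its span, and lay 4.67 to 23.2 kb from H2A.Zac. At RNASE1, a secreted ribonuclease gene, 6 regions of up to 2129 bp at chr14:20798357-20827725 held no changed H2A.Z and lay 17.1 to 45.8 kb from H2A.Zac. A run of 6 at chr11:58686033-58831084, around the gene GLYAT, held 8 H2A.Zac regions in its span, the most of these runs, and lay 5.55 to 43.45 kb from the nearest one. A run of 6 at chr1:211609271-211627534 held 2 H2A.Zac and 4 lost H2A.Z regions and lay 0.539 to 2.98 kb from H2A.Zac, and a run of 7 on chromosome 8 held 1 H2A.Zac and 4 lost H2A.Z regions and lay 1.86 to 36.4 kb from H2A.Zac. Of the 5751 H2A.Z-only regions, 25 were on contigs outside chromosomes 1 to 22, X and Y.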
